A study of Mus musculus with 16 samples.

Results

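Purinergic receptors bind nucleotides outside the cell and adenosine receptors bind the nucleoside that nucleotides are degraded to. 9 genes of these families were described here in myeloid-derived suppressor cells (MDSCs), namely *P2rx1*, *P2rx4*, *P2rx7*, *P2ry2*, *P2ry6*, *P2ry13*, *P2ry14*, *Adora2a* and *Adora2b*. They were chosen by symbol from the 24421 gene symbols of the count tables, in which 19 P2X, P2Y and adenosine receptor symbols were listed in all. Both MDSC subsets were sorted from the spleens of 8 C57BL/6 mice that carried subcutaneous B16.F10 melanoma, a transplanted mouse tumor line, and 3′ end mRNA was counted in 16 libraries, each from 1 mouse. The groups were M-MDSCs (CD11b high Ly6C+ Ly6G-) of WT mice, M-MDSCs of *Nlrp3*-/- mice, G-MDSCs (CD11b high Ly6C- Ly6G+) of WT mice and G-MDSCs of *Nlrp3*-/- mice, with 4 libraries in each. The *Nlrp3*-/- mice carry an EGFP cassette at the start codon of *Nlrp3* in every cell of the body, so the tumor's host, and not the MDSCs alone, lacked the gene. The labels give C57BL/6 for every library, but by the study's methods its wild-type C57BL/6J mice were bought and the *Nlrp3*-/- mice, on a C57BL/6 background, came from another laboratory, so genotype and colony of origin cannot be told apart. Mice were 6 to 12 weeks old by the study's general statement. The age, sex and day of the sort of the sequenced mice were not given in the sources used here.

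P2X receptors are cation channels opened by ATP. P2Y receptors are coupled to G proteins and differ in the nucleotide they bind, and the adenosine receptors encoded by *Adora2a* and *Adora2b* raise cAMP through Gs. In myeloid cells P2RX7 is best known as the channel through which extracellular ATP lets potassium leave the cell, a trigger of the NLRP3 inflammasome, while those adenosine receptors are known for dampening inflammatory responses.

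The libraries held 2295967 to 6079866 counts. Levels are given as CPM, counts per 1000000 after TMM scaling over the 16 libraries, and 3 counts corresponded to 0.349 to 1.17 CPM. Levels from fewer counts are printed too and are uncertain. *Nlrp3*, the disrupted gene, had 219 to 632 counts in the WT and 4 to 11 in the *Nlrp3*-/- M-MDSC libraries, and 744 to 1365 against 21 to 59 counts in the G-MDSC libraries. The sorted subsets carried their defining transcripts. Summed over 8 monocyte markers (*Ly6c2*, *Ccr2*, *Csf1r* and others) the level was 5856 to 8639 CPM in M-MDSCs and 696 to 1268 CPM in G-MDSCs, and summed over the 10 granulocyte markers listed (*S100a8*, *S100a9*, *Cxcr2* and others) it was 1456 to 8758 CPM in M-MDSCs and 115343 to 175732 CPM in G-MDSCs. *Ly6g*, on which G-MDSCs were gated, was not analysed here. One library stood apart by its markers: WT M-MDSC replicate 2 held 8758 CPM of granulocyte markers, against 1456 to 1881 CPM in the other WT M-MDSC libraries, and 667 CPM of immature myeloid markers, against 213 to 230 CPM. Test results that rest on this library are given with and without it.

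**Figure D1:**
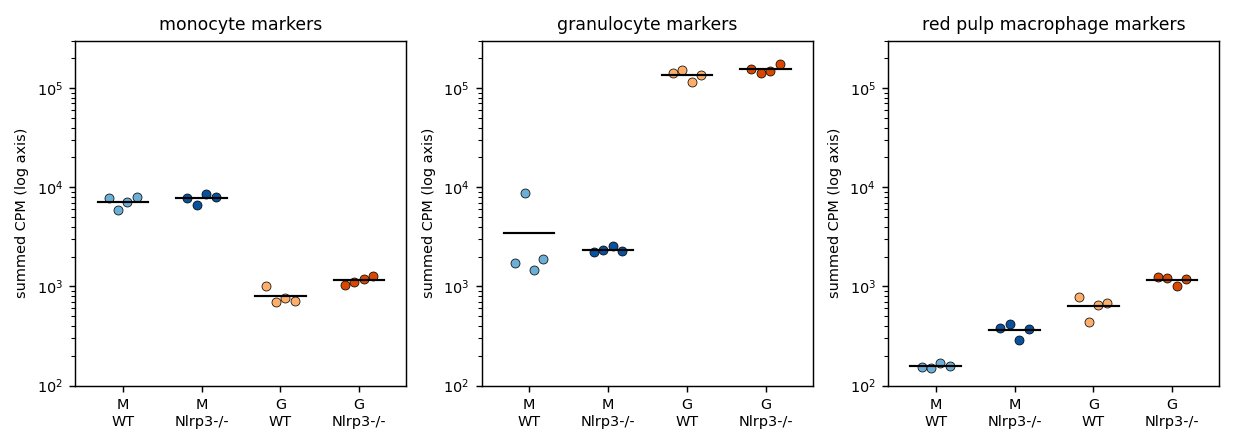
Summed CPM (log axis) of 8 monocyte, 10 granulocyte and 9 red pulp macrophage markers in each library; points are libraries, 4 to a group, and horizontal lines are group means. Monocyte markers were higher in every M-MDSC library and granulocyte markers in every G-MDSC library, WT M-MDSC replicate 2 held 8758 CPM of granulocyte markers, and red pulp macrophage markers were higher in every *Nlrp3*-/- library than in every WT library of the same subset.

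In mm10, several of the 9 genes are neighbors. *P2rx7* (chr5:122643911-122691432, plus strand) is followed on the same strand by *P2rx4* (chr5:122707544-122729738), *P2ry6* (chr7:100937630-100974649, minus strand) lies next to *P2ry2* (chr7:100996568-101012866, minus strand), and *P2ry14* (chr3:59113855-59153618, minus strand) and *P2ry13* (chr3:59207892-59210882, minus strand) both lie within *Med12l* (chr3:59005825-59318682), which runs on the opposite strand. *P2ry12* is next to *P2ry13* on the same strand. *Adora2a* (chr10:75316877-75334784), *Adora2b* (chr11:62248984-62266453) and *P2rx1* (chr11:72999103-73015200) lie on the plus strand with no other gene of these families next to them. Reads were counted by strand, so reads of *Med12l* are not added to *P2ry13* or *P2ry14*.

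Promoters of 250 bases before to 50 after a start site were available from RefSeq (GRCm38.p6, the assembly of mm10) for 7 of the 9 genes, as 12 windows, some of which overlap. They are shown for the 2 genes that were higher in G-MDSCs (*P2ry13*, *P2ry2*) and for a genomic neighbor of the first (*P2ry14*) and *P2rx7*, which were lower there in at least 1 genotype. Motif matches are in capitals, which are GAGGAAG (the PU.1 core, a binding sequence of a factor of myeloid cells) or TGANTCA (AP-1), on either strand; the first base of the match lies at -48 from the start site in *P2ry13*, at -202 (AP-1) and -21 (PU.1 core) in *P2ry14*, and at -249 (AP-1) in *P2rx7*.
P2ry13, chr3:59210833-59211132, minus strand: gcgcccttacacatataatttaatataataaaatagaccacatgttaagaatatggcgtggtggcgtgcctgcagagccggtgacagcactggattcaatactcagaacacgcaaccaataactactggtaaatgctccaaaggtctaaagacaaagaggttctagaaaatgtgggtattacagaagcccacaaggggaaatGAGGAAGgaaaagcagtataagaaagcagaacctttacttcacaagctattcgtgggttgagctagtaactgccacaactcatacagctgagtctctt
P2ry14, chr3:59153443-59153742, minus strand: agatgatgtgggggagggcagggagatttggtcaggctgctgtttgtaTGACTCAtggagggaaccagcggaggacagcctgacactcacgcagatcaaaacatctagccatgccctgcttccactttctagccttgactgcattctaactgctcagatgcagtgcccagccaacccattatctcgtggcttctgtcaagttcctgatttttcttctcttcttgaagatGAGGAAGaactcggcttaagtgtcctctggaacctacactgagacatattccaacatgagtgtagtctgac
P2ry2, chr7:101011949-101012248, minus strand: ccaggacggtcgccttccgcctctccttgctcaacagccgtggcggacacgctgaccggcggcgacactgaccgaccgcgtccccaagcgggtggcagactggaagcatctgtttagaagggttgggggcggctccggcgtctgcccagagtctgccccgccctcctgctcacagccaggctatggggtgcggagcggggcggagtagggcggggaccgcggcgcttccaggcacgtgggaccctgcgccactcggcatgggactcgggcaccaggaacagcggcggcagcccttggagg
P2rx7, chr5:122643677-122643976, plus strand: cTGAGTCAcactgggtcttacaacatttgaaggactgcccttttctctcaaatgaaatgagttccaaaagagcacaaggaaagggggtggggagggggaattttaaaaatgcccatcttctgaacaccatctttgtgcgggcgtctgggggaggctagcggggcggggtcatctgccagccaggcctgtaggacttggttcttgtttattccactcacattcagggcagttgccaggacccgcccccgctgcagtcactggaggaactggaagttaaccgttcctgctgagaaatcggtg

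Of the 12 windows, 3 held the PU.1 core (in *P2ry13*, *P2ry14* and a second start site of *P2rx7* that is not shown) and 3 held AP-1 (in *P2rx7* and *P2ry14*), against 13.6% and 7.81% of all 32851 RefSeq promoters. None of the 12 held the cAMP response element TGACGTCA (1.79% of all promoters), the C/EBP sequence TTGCGCAA (0.183%), the interferon-stimulated element GAAANNGAA (8.56%) or the NF-kB sequence GGGANTTTC (1.11%), and none of the matches overlapped one another. The windows also differed in base composition. The *P2ry2* window shown holds 30 CpG dinucleotides and the *Adora2b* window 27, whereas the *P2ry13* window holds 6 and the *P2ry14* window shown 4, with a median of 7 over all promoters. These matches and counts are descriptions of the letters in the windows.

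To ask which receptors distinguish the subsets, G-MDSCs were compared with M-MDSCs of the same genotype. In WT mice, *P2ry13* and *P2ry2* were higher in G-MDSCs, and *P2rx4*, *P2rx7*, *P2ry6* and *Adora2b* were lower. A gene was called where edgeR's quasi-likelihood test gave a Benjamini-Hochberg FDR under 0.05 over all genes tested and a fold change above 1.5. 8 of the 9 members passed the filter on low counts in WT mice, *P2ry14* being left out, and 2 were called higher and 4 lower, while 26.3% and 27.1% of all 9739 genes tested were called higher and lower. In *Nlrp3*-/- mice all 9 were tested, and 2 were called higher and 6 lower, against 23.7% and 27.4% of 10071 genes. The median log2 fold change of the members tested was -1.03 in WT and -1.50 in *Nlrp3*-/- mice, against -0.05 and -0.12 for all genes tested. The WT and *Nlrp3*-/- comparisons share no mouse. Lower signal from fewer cells of a type and from less mRNA per cell cannot be told apart in such pooled cells.

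*P2ry13* encodes a Gi-coupled receptor for ADP. Its level in WT mice was 317, 162, 273 and 284 CPM in the 4 G-MDSC libraries and 7.99, 8.44, 7.14 and 14.4 CPM in the M-MDSC libraries of the same mice. Those of *Nlrp3*-/- mice held 410, 443, 498 and 537 CPM in G-MDSCs and 18.0, 13.5, 22.3 and 20.0 CPM in M-MDSCs. Every G-MDSC library lay above every M-MDSC library. The log2 fold change was 4.81 in WT (SE 0.28, edgeR FDR 8.53e-08) and 4.56 in *Nlrp3*-/- mice (SE 0.20, FDR 5.08e-10), that is 28.1-fold and 23.6-fold.

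*P2ry2*, the Gq-coupled receptor for ATP and UTP, followed the same order. Its G-MDSC libraries held 24.0, 15.6, 25.4 and 24.5 CPM in WT and 30.5, 48.6, 30.7 and 62.9 CPM in *Nlrp3*-/- mice. The M-MDSC libraries held 3.16, 1.27, 0.357 and 0.343 CPM in WT, of which the last 2 come from 2 and 1 counts, and 2.79, 2.39, 1.67 and 3.21 CPM in *Nlrp3*-/- mice. The subsets did not overlap, and the log2 fold change was 4.02 in WT (SE 0.50, edgeR FDR 2.91e-05) and 3.94 in *Nlrp3*-/- mice (SE 0.33, FDR 2.55e-07).

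*P2ry6*, the Gq-coupled receptor for UDP, was at 58.7, 23.9, 25.5 and 32.9 CPM in WT and 34.2, 22.2, 51.8 and 32.6 CPM in *Nlrp3*-/- M-MDSCs. In G-MDSCs it was at 2.67, 3.38, 1.94 and 4.67 CPM in WT and 3.70, 4.20, 5.18 and 3.67 CPM in *Nlrp3*-/- mice. It was thus lower in every G-MDSC library, with a log2 fold change of -3.50 in WT (SE 0.38, edgeR FDR 1.04e-05) and -3.17 in *Nlrp3*-/- mice (SE 0.31, FDR 1.03e-06). *P2ry14*, the receptor for UDP-glucose, had few counts, 6 to 51 in M-MDSC and 2 to 13 in G-MDSC libraries. It stood at 1.11 to 2.67 CPM in WT and 1.93 to 8.70 CPM in *Nlrp3*-/- M-MDSCs, and at 0.485 to 1.56 and 0.622 to 3.00 CPM in G-MDSCs. It was called lower in G-MDSCs of *Nlrp3*-/- mice (log2 fold change -1.84, SE 0.65, edgeR FDR 0.0282) although the groups overlapped. With the mouse as a block the FDR was 0.0528, and without *Nlrp3*-/- mouse 2 or 3 it was 0.177 or 0.143. In WT mice it was not tested, and its value was lower in G-MDSCs in each of the 8 mice.

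Among the ATP-gated channels, *P2rx7* showed the widest difference between the subsets. WT M-MDSCs held 45.0, 31.2, 39.2 and 33.2 CPM and *Nlrp3*-/- M-MDSCs 55.0, 31.7, 35.9 and 59.2 CPM. G-MDSCs held 3.67, 0.338, 4.85 and 1.95 CPM in WT and 9.93, 1.97, 4.35 and 3.67 CPM in *Nlrp3*-/- mice, from 1 to 43 counts per library. No G-MDSC library reached the lowest M-MDSC library, and *P2rx7* was 13-fold lower in G-MDSCs in WT (log2 fold change -3.70, SE 0.42, edgeR FDR 1.39e-05) and 9.85-fold lower in *Nlrp3*-/- mice (-3.30, SE 0.41, FDR 1.21e-05).

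*P2rx4*, the neighbor of *P2rx7* on chromosome 5, encodes a channel with a higher affinity for ATP. Its M-MDSC libraries were close together in WT mice, at 24.2, 22.4, 23.0 and 22.3 CPM, and held 27.9, 21.8, 16.7 and 34.6 CPM in *Nlrp3*-/- mice. G-MDSCs held 12.4, 8.46, 8.97 and 5.45 CPM in WT and 12.2, 11.1, 9.32 and 9.18 CPM in *Nlrp3*-/- mice. The difference was in the same direction as that of *P2rx7* and smaller, with a log2 fold change of -1.37 in WT (SE 0.25, edgeR FDR 0.000571) and -1.40 in *Nlrp3*-/- mice (SE 0.29, FDR 0.00093). *P2rx1*, a fast desensitizing channel known from platelets and neutrophils, was low in all groups, at 0.984 to 7.06 CPM in M-MDSCs and 0.207 to 4.20 CPM in G-MDSCs. Its subset difference was not called in WT (log2 fold change -0.21, 95% interval -1.41 to 0.99, edgeR FDR 0.766) or in *Nlrp3*-/- mice (-1.50, -2.98 to -0.03, FDR 0.0794). In the latter it was called under 5 of 13 alternatives, among them the mouse as a block (FDR 0.0376) and the fit without mouse 4 (FDR 0.0379). Over the alternatives the FDR ran from 0.0107 to 0.277.

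Of the adenosine receptors, *Adora2b*, which encodes the receptor of low affinity, was found almost entirely in M-MDSCs. WT M-MDSCs held 9.66, 9.70, 16.6 and 15.4 CPM and *Nlrp3*-/- M-MDSCs 11.9, 7.85, 10.9 and 15.9 CPM. The G-MDSC libraries held 1, 0, 2 and 0 counts in WT and 3, 0, 0 and 0 counts in *Nlrp3*-/- mice, where 3 counts correspond to 0.622 to 1.17 CPM. Summed over the 4 libraries of a group, 259 counts in M-MDSCs stood against 3 in G-MDSCs in WT mice, a 51.9-fold higher rate (exact 95% interval 17.6 to 254, for counting error only), and 324 against 3 in *Nlrp3*-/- mice, a 68.0-fold higher rate (23.1 to 331). The edgeR FDR was 6.76e-06 in WT and 1.38e-05 in *Nlrp3*-/- mice.

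*Adora2a*, which encodes a receptor of high affinity, was present in both subsets. M-MDSCs held 11.7, 8.58, 4.99 and 8.91 CPM in WT and 8.72, 20.3, 15.7 and 13.2 CPM in *Nlrp3*-/- mice, and G-MDSCs 7.01, 8.46, 3.39 and 2.34 CPM in WT and 8.55, 10.6, 6.22 and 9.44 CPM in *Nlrp3*-/- mice. The subsets overlapped in both genotypes, although the G-MDSC value was the lower one in each of the 8 mice. The log2 fold change was -0.68 in WT (95% interval -1.61 to 0.24, edgeR FDR 0.185) and -0.84 in *Nlrp3*-/- mice (-1.53 to -0.14, FDR 0.0422). The latter call was lost with DESeq2's size factors, without a filter, with DESeq2's test and in a model of all 16 libraries (FDR 0.0516 to 0.0984), and without *Nlrp3*-/- mouse 2, 3 or 4 (FDR 0.0994 to 0.162).

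**Figure D2:**
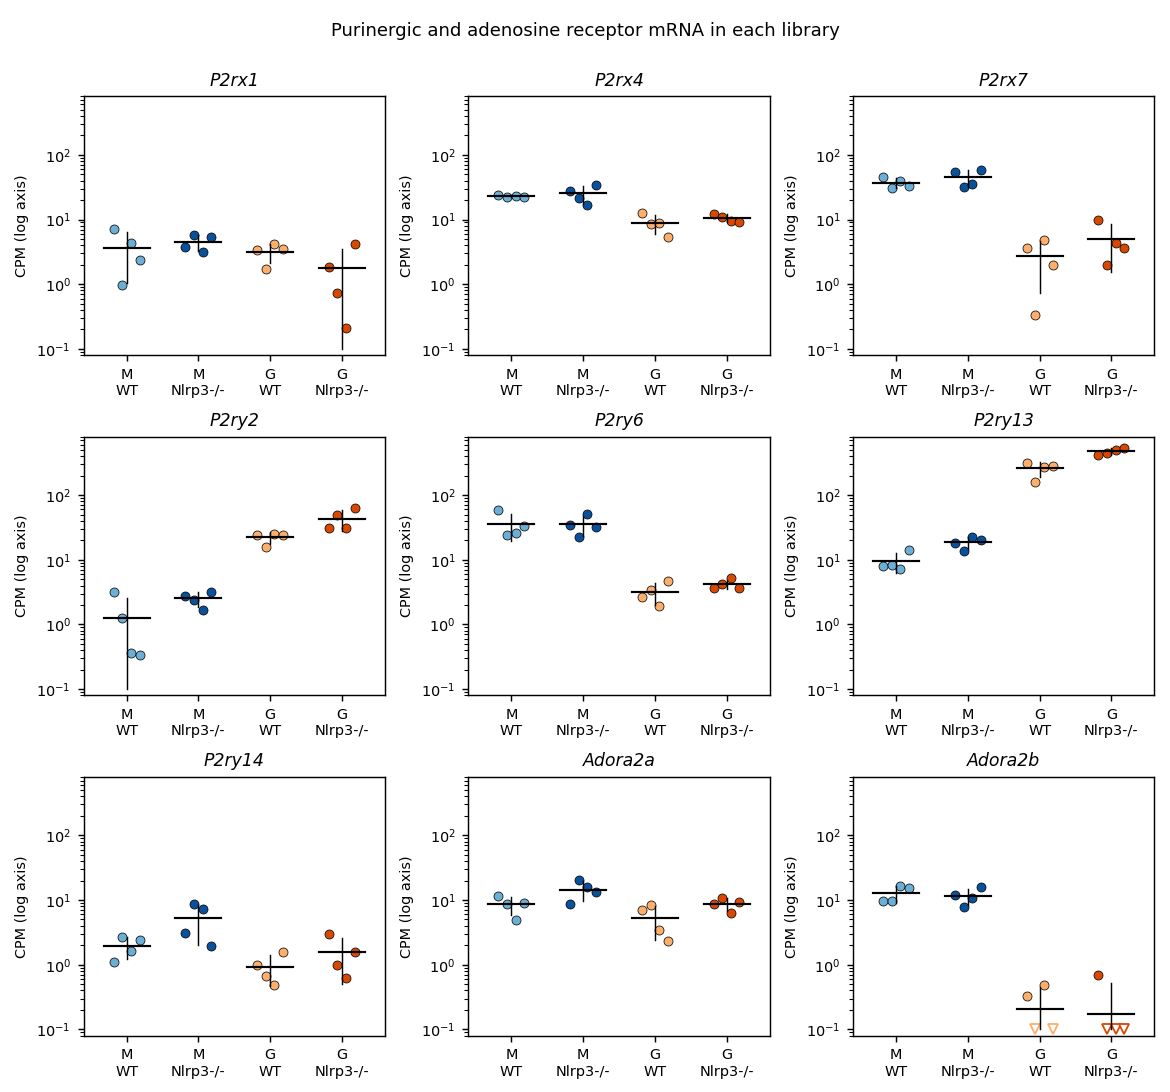
CPM (log axis) of the 9 receptors in each of the 16 libraries; points are libraries, open triangles at the bottom are libraries with 0 counts, horizontal lines are means and vertical lines 1 SD (n = 4), ending at the lower edge where they would pass it. *P2ry13* and *P2ry2* lie higher in every G-MDSC library, *P2rx4*, *P2rx7*, *P2ry6* and *Adora2b* lie higher in every M-MDSC library, and *P2rx1*, *P2ry14* and *Adora2a* overlap.

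In counts of members whose 4 libraries of a subset lay wholly above the 4 of the other, 2 were higher and 4 lower in G-MDSCs in either genotype, against 25.5% and 26.4% of the genes tested in WT and 26.2% and 24.0% in *Nlrp3*-/- mice. The lower level in one subset is given here beside what that subset held of the other's markers. M-MDSCs held 2.54% of the granulocyte marker sum of G-MDSCs in WT and 1.5% in *Nlrp3*-/- mice, and 3.66% and 3.92% of the *P2ry13* and 5.72% and 5.83% of the *P2ry2* level. The 2.54% comes from a WT M-MDSC mean of 3455 CPM that is raised by replicate 2. That library held 8758 CPM, against 1456 to 1881 CPM in the other WT M-MDSC libraries. The granulocyte sum in G-MDSCs came mostly from *S100a8* (51641 to 87930 CPM) and *S100a9* (44705 to 64176 CPM), and the share differed between its markers. *Cxcr2* was at 0.209 to 3.52 CPM in M-MDSCs and 853 to 3194 CPM in G-MDSCs, and *Mmp8* at 109 to 219 and 918 to 1538 CPM. G-MDSCs held 11.1% and 14.9% of the monocyte marker sum of M-MDSCs, 7.27% and 11% of the *P2rx7*, 8.98% and 11.9% of the *P2ry6* and 1.59% and 1.49% of the *Adora2b* level. The monocyte sum in G-MDSCs came mostly from *Csf1r* (340 to 909 CPM) and *Ly6c2* (181 to 287 CPM). *Ccr2*, *F13a1*, *Fn1* and *Ms4a6c* were at 0.207 to 15.4 CPM there and at 515 to 1563 CPM in M-MDSCs. For *P2rx4* this share was 38.4% and 41.4%. Whether cells of the other subset account for the low levels was not tested. Without WT mouse 2, whose M-MDSC library stood apart, the same number of members, 6, was called in WT mice.

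**Figure D3:**
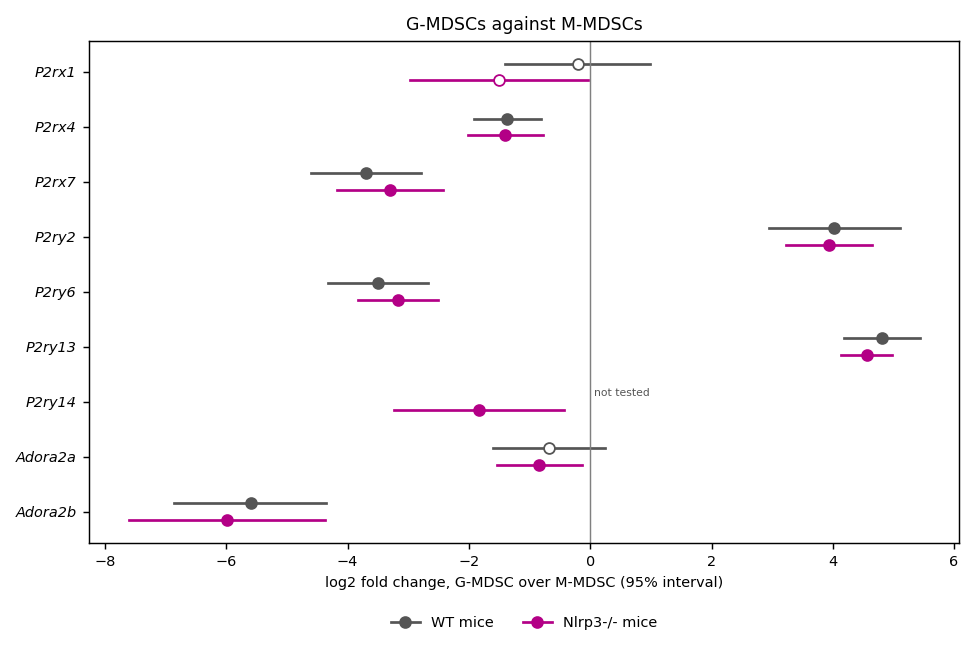
Log2 fold change of G-MDSCs over M-MDSCs with its 95% interval for each receptor in WT and in *Nlrp3*-/- mice, from edgeR; filled points were called and open points were not. *P2ry2* and *P2ry13* lie near 4 and 4.81 to the right and *P2rx7*, *P2ry6* and *Adora2b* to the left of -3 in both genotypes; the fitted value of *Adora2b* rests on 3 counts in each G-MDSC group.

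The question of the study was what the absence of *Nlrp3* changes in these cells, and the members were compared between the genotypes in each subset. *P2ry13* was higher in *Nlrp3*-/- mice in both subsets and *P2ry2* in G-MDSCs, and no member was called lower. In M-MDSCs 1 of 9 members was called higher and 0 lower, against 3.51% and 7.10% of all 9986 genes tested. In G-MDSCs 7 members were tested, *P2ry14* and *Adora2b* being left out by the filter, and 2 were called higher and 0 lower, against 4.70% and 11.7% of 9273 genes. The study had reported *P2ry2* and *P2ry13* as raised in *Nlrp3*-/- G-MDSCs from these same libraries, and the members were chosen with earlier results known. These counts and the median below are thus descriptions and no independent test. The median log2 fold change of the members was 0.33 in M-MDSCs and 0.63 in G-MDSCs, against 0.07 and 0.03 for all genes tested. No member's libraries were wholly above those of WT in M-MDSCs, where 7.59% of the genes tested were, and 2 members' were in G-MDSCs, where 12.0% were.

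For *P2ry13* in G-MDSCs, each *Nlrp3*-/- library (410 to 537 CPM) was above each WT library (162 to 317 CPM), and the mean was 472 ± 56.7 CPM against 259 ± 67.2 CPM (SD, n = 4). This is a log2 fold change of 0.78 (SE 0.19, edgeR FDR 0.0122), or 1.72-fold, and it was called under each of the 20 alternatives tried (FDR 0.00108 to 0.0416). In M-MDSCs the mean was 18.5 ± 3.77 CPM in *Nlrp3*-/- against 9.49 ± 3.31 CPM in WT mice (SD, n = 4). The lowest *Nlrp3*-/- library (13.5 CPM) fell below the highest WT library (14.4 CPM). The log2 fold change was 1.01 (SE 0.27, edgeR FDR 0.0339), or 2.01-fold. This call was lost without WT replicate 1, 2 or 3 or *Nlrp3*-/- replicate 3 or 4 (FDR 0.0655 to 0.102), with WT replicate 2, the library that stood apart, among them (0.97, FDR 0.0927). With all libraries kept, *P2ry13* was called in M-MDSCs under 10 of 12 alternatives (FDR 0.00936 to 0.0833).

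*P2ry2* in G-MDSCs averaged 43.2 ± 15.7 CPM in *Nlrp3*-/- and 22.4 ± 4.59 CPM in WT mice (SD, n = 4), without overlap, as the lowest *Nlrp3*-/- library held 30.5 CPM and the highest WT library 25.4 CPM. The log2 fold change was 0.86 (SE 0.27, edgeR FDR 0.0405). It was not called in a model of all 16 libraries (FDR 0.067), after a correction for GC content and length (0.54, FDR 0.206), or without WT replicate 1, 2 or 4 or *Nlrp3*-/- replicate 2 or 4 (FDR 0.0585 to 0.143). In M-MDSCs its log2 fold change was 0.95 with a 95% interval of -0.37 to 2.26 (edgeR FDR 0.314), from 1 to 25 counts per library.

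Neither adenosine receptor was called. *Adora2a* averaged 14.5 ± 4.83 CPM in *Nlrp3*-/- and 8.55 ± 2.75 CPM in WT M-MDSCs (SD, n = 4), a log2 fold change of 0.77 with a 95% interval of 0.09 to 1.45 (edgeR FDR 0.12), and 8.71 ± 1.86 against 5.30 ± 2.91 CPM in G-MDSCs, 0.63 with an interval of -0.31 to 1.56 (FDR 0.345). For *Adora2b* in M-MDSCs the log2 fold change was -0.10, with an interval of -0.72 to 0.53 (edgeR FDR 0.856).

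The ATP-gated channels overlapped between the genotypes. In M-MDSCs the log2 fold change was 0.33 for *P2rx7* (95% interval -0.18 to 0.84, edgeR FDR 0.369), 0.18 for *P2rx4* (-0.33 to 0.68, FDR 0.65) and 0.32 for *P2rx1* (-0.79 to 1.42, FDR 0.718). In G-MDSCs it was 0.76 for *P2rx7* (-0.65 to 2.17, edgeR FDR 0.457), 0.16 for *P2rx4* (-0.54 to 0.86, FDR 0.769) and -0.97 for *P2rx1* (-2.49 to 0.55, FDR 0.372). For *P2rx4* and *P2rx7* in M-MDSCs these intervals leave out a doubling, whereas for *P2rx7* in G-MDSCs a change of that size lies within the interval.

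The remaining P2Y members were not called either. *P2ry6* had a log2 fold change of 0.02 in M-MDSCs (95% interval -0.66 to 0.70, edgeR FDR 0.975) and 0.34 in G-MDSCs (-0.68 to 1.35, FDR 0.663). *P2ry14* in M-MDSCs held 3.14, 8.70, 7.31 and 1.93 CPM in *Nlrp3*-/- and 1.11, 2.67, 1.61 and 2.40 CPM in WT mice, and had a log2 fold change of 1.43 (0.30 to 2.56, edgeR FDR 0.0912). *Nlrp3*-/- replicates 2 and 3 were the high libraries, and replicate 4 lay among the WT libraries.

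**Figure D4:**
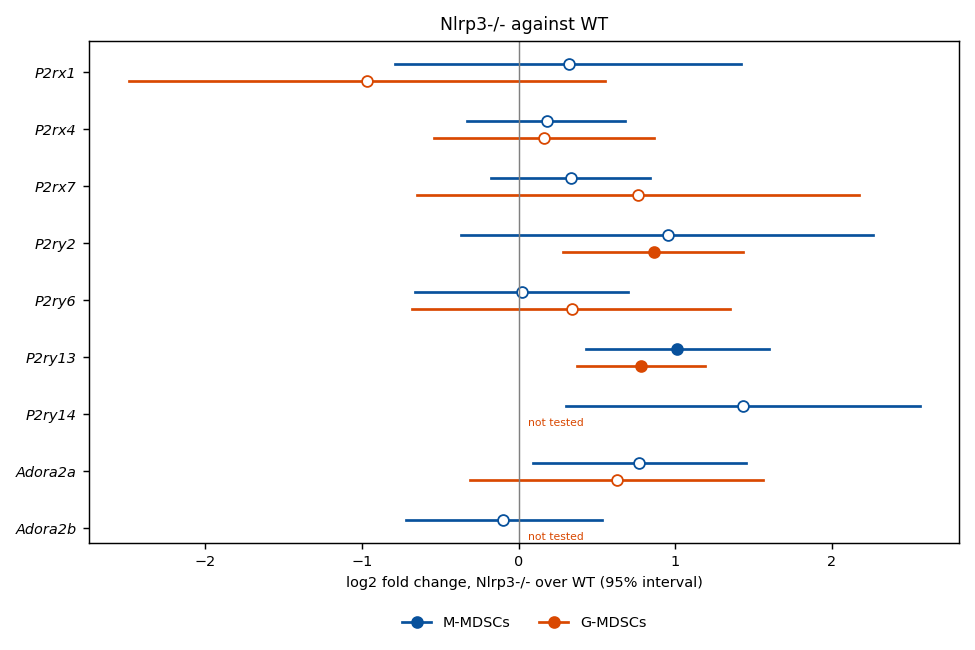
Log2 fold change of *Nlrp3*-/- over WT with its 95% interval for each receptor in M-MDSCs and in G-MDSCs, from edgeR; filled points were called, open points were not, and *P2ry14* and *Adora2b* were not tested in G-MDSCs. *P2ry13* is called in both subsets (1.01 and 0.78) and *P2ry2* in G-MDSCs (0.86), and among the other intervals those of *Adora2a* and *P2ry14* in M-MDSCs leave out 0.

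Transcripts of another cell type moved with the genotype. Of 9 red pulp macrophage markers, 7 were called higher in *Nlrp3*-/- mice in M-MDSCs and 7 in G-MDSCs. Their summed level was 152 to 171 CPM in WT and 290 to 423 CPM in *Nlrp3*-/- M-MDSCs, and 443 to 777 against 1003 to 1254 CPM in G-MDSCs. *Slc40a1* was the largest part of the G-MDSC sum, at 299 to 501 CPM in WT and 525 to 683 CPM in *Nlrp3*-/- mice. In M-MDSCs it was at 3.08 to 27.8 CPM. None of the 9 markers was at 0 throughout a group. *C1qa*, a complement gene of macrophages, rose from 6.33 to 8.38 CPM to 31.6 to 46.1 CPM in M-MDSCs. Of 8 immature myeloid markers, 6 were tested in M-MDSCs and 2 in G-MDSCs, and 2 were called lower in each. Their sum ran from 213 to 667 CPM in WT and 91 to 226 CPM in *Nlrp3*-/- M-MDSCs, and from 95.7 to 371 against 35.1 to 92.2 CPM in G-MDSCs. In G-MDSCs this sum was mostly the cycling genes *Mki67* and *Top2a*, as *Mpo*, *Elane*, *Prtn3* and *Ctsg* were at 0 to 5.68 CPM, and *Cd34* was at 0 in *Nlrp3*-/- mice. *Cd34* in M-MDSCs was at 0.343 to 0.929 CPM in WT and 0.899 to 3.55 CPM in *Nlrp3*-/- mice.

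The sums of 3 lists of further cell types moved with the genotype too, with overlap for eosinophil markers in M-MDSCs. Conventional dendritic cell markers were at 66.0 to 96.6 CPM in WT and 126 to 158 CPM in *Nlrp3*-/- M-MDSCs, with 1 of 4 tested called higher, and at 153 to 206 against 213 to 271 CPM in G-MDSCs, with 0 of 1. The G-MDSC sum was nearly all *Itgax* (150 to 268 CPM), and *Flt3*, *Zbtb46*, *Xcr1*, *Cd209a* and *Clec10a* were at 0 to 2.72 CPM there. Eosinophil markers were at 4.99 to 28.0 against 26.7 to 76.3 CPM in M-MDSCs (1 of 3 tested called higher) and at 28.4 to 58.0 against 58.9 to 62.2 CPM in G-MDSCs (0 of 3), with *Epx* at 0 in *Nlrp3*-/- G-MDSCs. NK cell markers were at 29.6 to 67.1 against 87.9 to 131 CPM in M-MDSCs (1 of 4) and at 24.0 to 42.4 against 52.3 to 86.8 CPM in G-MDSCs (1 of 3). *Gzma* was the largest part of this sum, at 13.9 to 46.6 against 64.5 to 99.8 CPM in M-MDSCs and 12.5 to 27.6 against 43.2 to 73.2 CPM in G-MDSCs. The list did not move as a set. *Prf1* in M-MDSCs (0.892 to 3.53 against 0 to 0.853 CPM) and *Eomes* in G-MDSCs (4.06 to 8.01 against 0.262 to 3.47 CPM) were lower in *Nlrp3*-/- mice. Markers of the sorted subsets moved in part as well. The monocyte sum in G-MDSCs was at 696 to 1000 CPM in WT and 1033 to 1268 CPM in *Nlrp3*-/- mice. *Cxcr2* in G-MDSCs was at 1852 to 3194 against 853 to 1543 CPM, while the granulocyte sums overlapped. Of tested monocyte markers 2 of 8 were called lower in M-MDSCs and 1 of 6 higher in G-MDSCs. Of granulocyte markers 2 of 9 were called higher in M-MDSCs and 1 of 10 lower in G-MDSCs. The part of any of these lists in the levels of *P2ry13* and *P2ry2* was not tested.

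A model of the 16 libraries together, with a term for subset by genotype, asked whether the genotype changed the receptors differently in M-MDSCs and G-MDSCs. It held no term for the mouse, although each mouse gave a library to both subsets. By edgeR's quasi-likelihood test 0 members were called (adjusted p 0.992 to 1) and 0 fell under 0.05 before adjustment, and DESeq2's test called 0 as well. Of all 10696 genes tested 3 were called, or 0.0280%, and 480 had an unadjusted p under 0.05. In simulated counts this test called 1.5% of the genes changed 2-fold and 55% of those changed 3-fold, so most differences of 2-fold were missed there. Those counts gave a gene the same mean in all groups but the changed one and held no mouse effect. The shares may thus not hold for receptors that differ between the subsets. The difference of the log2 fold changes, G-MDSCs minus M-MDSCs, was -0.14 for *P2ry13* (95% interval -0.80 to 0.52), so a difference of 2-fold lies outside the interval for this gene. It was 0.04 for *P2ry2* (-1.80 to 1.87), -0.04 for *Adora2a* (-1.20 to 1.11), 0.10 for *P2rx4* (-0.66 to 0.86), 0.53 for *P2rx7* (-0.76 to 1.81) and 0.45 for *P2ry6* (-0.58 to 1.49). The intervals of *P2rx1* (-3.10 to 0.74), *P2ry14* (-2.60 to 1.30) and *Adora2b* (-2.53 to 2.08) were wider.

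The 10 other genes listed under P2X, P2Y and adenosine receptor symbols, taken by symbol and not by ligand, were mostly at or near 0. *P2rx2*, *P2rx6* and *Adora3* had 0 counts in each library, and *P2rx3*, *P2rx5*, *P2ry4* and *Adora1* 0 to 6. The 3 that were tested are *P2ry1*, *P2ry10* and *P2ry12*. *P2ry12*, the ADP receptor next to *P2ry13* on chromosome 3, was higher in G-MDSCs, like *P2ry13*, at 11.0 ± 4.36 against 2.85 ± 1.37 CPM in WT (SD, n = 4; log2 fold change 2.00, SE 0.41, edgeR FDR 0.00138) and 16.4 ± 6.11 against 3.49 ± 0.286 CPM in *Nlrp3*-/- mice (2.11, SE 0.35, FDR 0.000154). *P2ry1*, the Gq-coupled receptor for ADP, was lower in G-MDSCs of *Nlrp3*-/- mice (log2 fold change -1.38, SE 0.41, edgeR FDR 0.0112), and in WT mice its value was -0.90 (FDR 0.0859). *P2ry10* was higher in G-MDSCs of WT mice (0.75, SE 0.27, edgeR FDR 0.0294). None of the 3 was called between the genotypes.

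The genes that make, release and break down the ligands follow, by list. Of 11 ectoenzymes for nucleotides, 7 were tested in WT mice and 6 were higher in G-MDSCs and 0 lower, with a median log2 fold change of 3.17, and in *Nlrp3*-/- mice 5 of 6 were higher. *Entpd1* (CD39, which removes phosphates from ATP and ADP) was at 281 ± 59.0 against 17.5 ± 1.59 CPM in WT mice (SD, n = 4; log2 fold change 4.00, SE 0.19, edgeR FDR 1.91e-08). *Entpd3*, an enzyme of the same family, was at 39.1 ± 5.15 CPM in G-MDSCs and 0.0465 ± 0.0929 CPM in M-MDSCs, and *Acpp*, which removes phosphate from AMP, at 67.4 ± 19.7 against 4.90 ± 0.543 CPM (SD, n = 4). *Bst1*, an enzyme acting on NAD, was higher as well (2.59, SE 0.26, edgeR FDR 5.25e-06). Between the genotypes, *Acpp* alone of this list was called, lower in *Nlrp3*-/- G-MDSCs (log2 fold change -0.82, SE 0.22, edgeR FDR 0.0211). *Nt5e* (CD73), which makes adenosine from AMP and is named here with its values already seen, was among the 6 higher in WT G-MDSCs (10.5 ± 2.93 against 1.03 ± 1.11 CPM; SD, n = 4). Its level in *Nlrp3*-/- G-MDSCs was 4.68 ± 3.50 CPM (SD, n = 4; log2 fold change against WT -1.24, SE 0.47, edgeR FDR 0.0844).

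Among 7 genes for adenosine uptake and breakdown, 6 were tested and 2 were higher and 3 lower in WT G-MDSCs, and 1 higher and 3 lower in *Nlrp3*-/- G-MDSCs. Lower were *Pnp*, which cleaves inosine (log2 fold change -1.78, SE 0.21, edgeR FDR 1.84e-05 in WT), and the nucleoside transporter *Slc29a1* (-1.29, SE 0.32, FDR 0.00485). *Ada*, which turns adenosine into inosine, was at 7.42 ± 1.96 CPM in WT G-MDSCs, 1.13 ± 0.544 CPM in WT M-MDSCs and 1.21 ± 1.23 CPM in *Nlrp3*-/- G-MDSCs (SD, n = 4). It was thus called higher in WT G-MDSCs than in WT M-MDSCs (2.61, SE 0.42, edgeR FDR 0.000216) and lower in *Nlrp3*-/- than in WT G-MDSCs (-2.63, SE 0.68, FDR 0.0164). Of 7 genes for ATP release, 5 were tested, and in each genotype 1 was higher and 3 lower in G-MDSCs. The vesicular nucleotide transporter *Slc17a9* was the higher one (1.92, SE 0.45, edgeR FDR 0.003 in WT) and the channels *Panx1* (-2.08, SE 0.26, FDR 2.81e-05) and *Calhm2* (-3.41, SE 0.32, FDR 2.95e-06) were lower. *Vdac1*, a channel of the outer mitochondrial membrane, was called higher in *Nlrp3*-/- than in WT G-MDSCs, at 62.9 ± 4.82 against 31.0 ± 6.63 CPM without overlap (SD, n = 4; 0.93, SE 0.20, edgeR FDR 0.00549).

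Downstream of the receptors, 15 of 17 G protein, adenylyl cyclase and phospholipase C genes were tested, and 6 were higher and 4 lower in WT G-MDSCs. *Itpr2* (log2 fold change 1.39, SE 0.16) and *Plcb2* (1.36, SE 0.19), both of the Gq branch, were higher, and *Itpr1* (-2.69, SE 0.20) and the adenylyl cyclase *Adcy7* (-1.11, SE 0.17) were lower, with edgeR FDR of 0.000152 or below. The corresponding numbers in *Nlrp3*-/- mice were 5 and 4. *Gnas*, the Gs subunit through which both adenosine receptors signal, was the one gene of this list called between the genotypes in both subsets. It fell from 343 ± 18.7 to 158 ± 45.4 CPM in M-MDSCs (SD, n = 4; log2 fold change -1.09, SE 0.21, edgeR FDR 0.00832) and from 212 ± 49.3 to 117 ± 22.3 CPM in G-MDSCs (-0.94, SE 0.19, FDR 0.00394), and neither pair of groups overlapped. *Plcb2* (-0.63, SE 0.19) and *Itpr2* (-0.69, SE 0.16) were lower in *Nlrp3*-/- G-MDSCs too (edgeR FDR 0.0308 and 0.0103).

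Of 12 cAMP effectors and phosphodiesterases, 11 were tested between the subsets, with 5 higher and 1 lower in WT and 3 higher and 1 lower in *Nlrp3*-/- G-MDSCs. The transcription factor *Atf1* (log2 fold change 1.64 in WT, SE 0.17, edgeR FDR 8.11e-06) and the phosphodiesterase *Pde4b* (1.45, SE 0.22, FDR 0.000146) were higher and *Pde4a* was lower (-1.56, SE 0.32, FDR 0.00128). Between the genotypes *Pde4a* was higher in *Nlrp3*-/- M-MDSCs (0.75, SE 0.20, edgeR FDR 0.0318) and *Pde3b* lower in *Nlrp3*-/- G-MDSCs (-1.05, SE 0.25, FDR 0.011). Of 11 transcripts known to be induced by cAMP, 9 were tested. In *Nlrp3*-/- G-MDSCs *Sik1* (-1.18, SE 0.19), *Thbs1* (-1.01, SE 0.29) and *Vegfa* (-0.66, SE 0.20) were lower and *Dusp1* was higher (0.81, SE 0.25), with edgeR FDR of 0.000796 to 0.0388. In M-MDSCs *Per1* was higher (0.63, SE 0.18, FDR 0.0467) and 0 were lower. Between the subsets 5 were higher and 1 lower in WT G-MDSCs, and 4 higher and 2 lower in *Nlrp3*-/- G-MDSCs.

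All 8 genes for receptor desensitization were tested, and 6 were higher and 0 lower in G-MDSCs of either genotype, led by *Arrb2*, an arrestin (log2 fold change 2.19 in WT, SE 0.17, edgeR FDR 6.08e-07). *Adrbk1*, a receptor kinase, was higher in *Nlrp3*-/- M-MDSCs (0.67, SE 0.17, edgeR FDR 0.0282). In *Nlrp3*-/- G-MDSCs *Arrb1* (0.60, SE 0.18) and *Rgs1* (1.09, SE 0.28) were higher and *Rgs18* was lower (-1.41, SE 0.21), with edgeR FDR of 0.000486 to 0.0312. For the 9 genes from P2RX7 to the inflammasome, 8 were tested. The adaptor *Pycard* was lower in WT G-MDSCs (-2.29, SE 0.25, edgeR FDR 1.16e-05), as was *P2rx7*, whereas *Il1b*, whose product the inflammasome cleaves, was higher (5.58, SE 0.37, FDR 1.91e-07). In *Nlrp3*-/- G-MDSCs *Il18* (0.98, SE 0.28) and *Il1b* (0.70, SE 0.22) were higher and *Nek7* was lower (-0.99, SE 0.30) beside *Nlrp3* itself (edgeR FDR 0.0265 to 0.0378 for these 3), and in M-MDSCs *Nlrp3* alone was called.

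In all, of the 93 other genes of these lists, 3 were higher and 2 lower in *Nlrp3*-/- M-MDSCs among 68 tested, and 6 higher and 12 lower in *Nlrp3*-/- G-MDSCs among 72. The lower genes of both subsets include *Nlrp3*, the disrupted gene. Over all genes tested the shares were 3.51% and 7.10% in M-MDSCs and 4.70% and 11.7% in G-MDSCs. Between the subsets 35 were higher and 16 lower in WT G-MDSCs among 72, and 28 higher and 17 lower in *Nlrp3*-/- G-MDSCs among 71, where the shares over all genes were 26.3% and 27.1% in WT and 23.7% and 27.4% in *Nlrp3*-/- mice. None of the 73 tested was called for a difference of the genotype effect between the subsets.

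**Figure D5:**
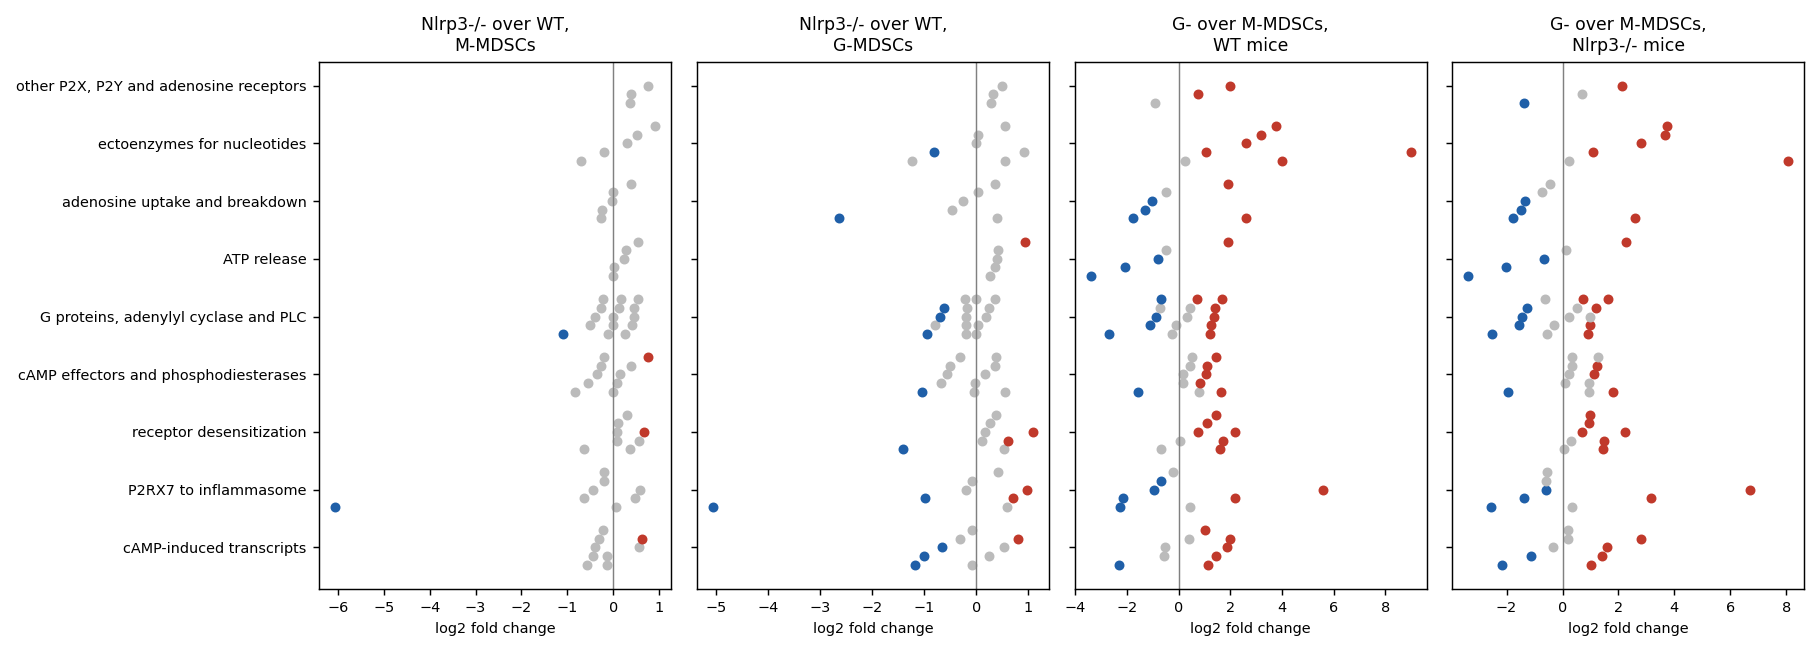
Log2 fold change (edgeR) of each tested gene of 9 lists around the receptors, in the 4 comparisons; red points were called higher, blue points called lower and gray points not called. Ectoenzymes (6 of 7 higher in WT) and desensitization genes (6 of 8) lie mostly to the right in G- over M-MDSCs, while few genes are called between the genotypes, and the leftmost blue point in both genotype panels is *Nlrp3*. The rightmost ectoenzyme point is *Entpd3*, whose fitted value rests on an M-MDSC level near 0.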

How the data were processed

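The 16 QuantSeq libraries (4 per subset and genotype) measure 3′ ends of mRNA from sorted splenic MDSCs. The authors' deposited values are raw counts per gene symbol, made with HISAT2 2.1.0 on mm10 and stranded htseq-count. The libraries had 15 or 17 amplification cycles, and which had which was not given in the sources used here. Molecular identifiers were not named in the sources used here, so counting intervals cover counting error only.

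Counts were tested in R 4.3.3 with edgeR 4.0.16 (filterByExpr, TMM, quasi-likelihood test) on all genes. The thresholds were FDR 0.05 and 1.5-fold, and the standard error is the log2 fold change divided by the square root of F. DESeq2 1.42.0 was an alternative, and edgeR's newer quasi-likelihood method was added after the data were seen. CPM were scaled by TMM over all libraries, and figures were drawn with matplotlib 3.10.9. The methods were tested on simulated data.

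The members and gene lists were chosen with earlier results of these data known. The text names all 9 members, up to 4 called genes per list and comparison with the smallest p, and for each member the 3 genes most like it. Libraries are named by group and replicate, and 24 pairs within groups differed beyond sampling noise (chi-square per degree of freedom 6.76 to 50.6). Descriptions tie same-numbered subsets of a genotype to 1 mouse, so replicate numbers pair the subsets. Their deviations correlated at 0.10 to 0.40 in WT and 0.01 to 0.38 in *Nlrp3*-/- mice. The main tests nevertheless held no term for the mouse, and the block by mouse was an alternative. Of the listed symbols, *P2ry10b* and *Ly6g* were not analysed here. Motif positions are relative to the RefSeq start site. Coordinates are from GENCODE vM21, and 24053 of 24421 symbols matched it for GC content and length.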

Additional observations from a re-analysis of the deposited data

Results flagged for a closer look

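In 2 of 36 groups of 4 libraries 1 member value lay far from the other 3, and chance alone gives about 1 in 20 groups of normally distributed values. That rate does not hold for groups near 0 counts, where a lone library with any count is always flagged. *P2ry2* in WT G-MDSC replicate 2 was at 15.6 CPM, below 24.0 to 25.4 CPM in the other 3 libraries, a gap of 0.858 of the group's range. Without this library the log2 fold change of *P2ry2* between the genotypes in G-MDSCs was 0.73 (edgeR FDR 0.106), and the call was lost. *Adora2b* in *Nlrp3*-/- G-MDSC replicate 1 was at 0.693 CPM, from 3 counts, while the other 3 libraries had 0 counts. No member was called for a difference of the genotype effect between the subsets.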

How the results depend on the processing

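Each member's log2 fold change was recomputed under the alternatives, and 607 values kept their direction and their side of the threshold, 26 lost a call, 7 gained one and 37 changed sign. The members called between the genotypes in M-MDSCs (1) became 0 with the replicate block (*P2ry13* 1.02, FDR 0.0787), 2 with the GC content and length correction, where *P2ry14* was added (1.85, edgeR FDR 0.0459), and 0 with both, and 0 to 1 when a library was left out. In G-MDSCs (2) they became 1 in a model of all 16 libraries, with the replicate block, with the GC content and length correction and with both, and 1 to 2 when a library was left out. *P2ry2* was the call lost. *Adora2a* between the subsets in WT mice was called with library size alone (-1.44, FDR 0.00759). With at least 10 counts in every library 2 members were called between the subsets in WT and 4 in *Nlrp3*-/- mice, since only 2 and 4 were then tested; leaving out a mouse gave 6 to 6 and 6 to 8. Same-numbered WT and *Nlrp3*-/- mice are different animals whose deviations correlated at -0.45 to 0.02 in M-MDSCs and -0.26 to -0.04 in G-MDSCs, and 0 of 4 numbers matched best. Over all genes, 425 calls were made with the block in M-MDSCs, against 1060 without it, and 985 against 1522 in G-MDSCs. With the GC content and length correction there were 662 and 951 calls, and with both 83 and 455. Apart from *P2ry14* and *P2rx1* in *Nlrp3*-/- mice, the block by mouse changed no call between the subsets. Library size alone moved the median of all genes between the subsets from -0.05 to -0.79 in WT and from -0.12 to -0.83 in *Nlrp3*-/- mice, and the share of higher calls from 49.2% to 18.7% and from 46.4% to 18.5%; upper-quartile scaling gave shares of 38.2% and 38.5%. *P2ry2* and *P2ry13* stayed higher in G-MDSCs under each scaling. Between the genotypes library size alone gave shares of 54.6% and 48.1%, against 33.1% and 28.6%, and upper-quartile scaling 39.1% in G-MDSCs.

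No value that changed sign was called, before or after. *P2ry6* in M-MDSCs was at -0.0047 with DESeq2's size factors, -0.0028 with DESeq2's test, -0.0041 in the model of all 16 libraries, -0.29 with the GC content and length correction and -0.27 with the block added, and in G-MDSCs at -0.07 and -0.03 in the last 2. The difference of the genotype effect changed sign for *P2ry2*, at -0.04 with DESeq2's size factors, -0.10 with library size alone, -0.01 with the upper quartile, and -0.05 with DESeq2's test and with the replicate block, and for *Adora2a*, at 0.02 with the block. Leaving out a library gave -0.02 to 0.88 for *P2rx1*, -0.05 to 0.33 for *P2rx4*, -0.20 to 0.41 for *P2ry6* and -0.33 to 0.06 for *Adora2b* between the genotypes in M-MDSCs, and -0.42 to 0.32 for *P2rx1* between the subsets in WT mice. For the difference of the genotype effect it gave -0.05 to 0.35 for *P2rx4*, -0.78 to 0.44 for *P2ry2*, -0.31 to 0.03 for *P2ry13*, -0.29 to 0.27 for *Adora2a* and -3.13 to 0.48 for *Adora2b*. Over all genes, that difference was called for 3 genes, for 5 without a filter, for 9 with DESeq2's test and for 1 to 4 without a mouse, and leaving out a library gave 450 to 1783 calls between the genotypes in M-MDSCs. The cause of these changes was not tested. Depth limits *P2rx1*, *P2ry14*, *P2ry2* in M-MDSCs, and *P2rx7* and *Adora2b* in G-MDSCs, which have few counts.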

Other observations

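The genes whose log2 CPM followed each receptor most closely over the 16 libraries were, for *P2ry13*, *Aatk*, *Ifi27* and *Midn* (Pearson r 0.994 to 0.990), for *P2ry2*, *Ccdc180*, *Pilrb2* and *Oasl2* (0.978 to 0.976), for *P2rx7*, *Rras*, *2210016F16Rik* and *Tmem176b* (0.982 to 0.970), for *P2ry6*, *Irf8*, *Ly6c2* and *Snd1* (0.979 to 0.978) and for *Adora2b*, *Tifa*, *Stxbp6* and *Naaa* (0.987 to 0.983). For *P2rx4* they were *Idh1*, *Ms4a8a* and *Qtrt1* (0.948 to 0.941), for *Adora2a*, *Acads*, *Ptov1* and *Tmem259* (0.889 to 0.866), for *P2ry14*, *Ammecr1l*, *Errfi1* and *1810030O07Rik* (0.892 to 0.838) and for *P2rx1*, *Tmem67*, *Rsad1* and *BC003965* (0.767 to 0.729). These are descriptions over 10696 genes. The 16 points fall into 2 subsets, and each mouse gives a point to both. *Med12l*, the gene on whose opposite strand *P2ry13* and *P2ry14* lie, was at 10.7 to 27.4 CPM in G-MDSCs and 0.178 to 1.41 CPM in M-MDSCs.

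Summed B cell markers were at 68.4 to 135 CPM in M-MDSCs and 171 to 289 CPM in G-MDSCs, and T cell markers at 36.0 to 86.8 and 82.4 to 129 CPM. Platelet and megakaryocyte markers were at 7.88 to 26.2 and 14.8 to 44.5 CPM, and erythroid markers at 8.38 to 72.1 and 14.6 to 123 CPM, with 4 of 6 erythroid markers, the globin genes, at 0. Basophil and mast cell markers reached 9.70 CPM, plasmacytoid dendritic cell markers 9.28 CPM and melanocyte and melanoma markers 1.45 CPM, and *Tyr*, *Mlana* and *Tyrp1* were at 0 in all groups.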
